A study of Mus musculus with 16 samples.

Results

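The 8 wildtype (WT) libraries of this RNA-sequencing study of mouse embryonic stem cells (ESCs) carry the numbers 1 to 4, each with a letter A and B. The 4 libraries of numbers 3 and 4 (3A, 3B, 4A and 4B) were compared with the 4 libraries of numbers 1 and 2 (1A, 1B, 2A and 2B). They were taken by number alone, and they are 8 of the 16 libraries of the series, the rest being 4 Dnmt1 KO libraries, labelled as lacking Dnmt1, and 4 Dicer/Dnmt1 KO libraries, labelled as lacking Dicer1 as well. All 8 have the same labels: ESC as cell type, wildtype as genotype and control at both Dicer1 and Dnmt1. No label says what a number or a letter stands for, so that a clone, a culture, a passage, a harvest or a sequencing run cannot be told apart, and p-values measure the spread between these libraries, which may be technical. The labels give E14, an established ESC line, as background, while the methods of the study name C57BL/6 ESCs with a Dnmt1 gene flanked by loxP sites as the parent of its knockout lines. Whether the WT cells carried such sites, or grew with feeder fibroblasts, is not stated for these libraries. Number 4, in which Dnmt1 RNA was low, is shown apart from number 3 throughout.

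ESCs are cultured descendants of the inner cell mass of the blastocyst, and they are kept in self-renewal by LIF and a small circuit of transcription factors around Oct4, Sox2 and Nanog. In serum they move between a naive state and states closer to the epiblast, and a few of them switch on genes of the primitive endoderm, the layer that forms the yolk sac. Imprinted genes are read from only the maternal or only the paternal copy, and DNA methylation kept by Dnmt1 at each cell division marks which. Their levels are known to drift among ESC lines and passages, as do genes of the germline that methylation holds silent.

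Values are levels in log2 RPM, where RPM is a gene's reads for each M reads of its library. The 8 libraries held 31.54 to 52.54 M reads. Of these, 45.3% to 47.3% fell in genes in numbers 1 and 2 and 48.3% to 48.7% in numbers 3 and 4, without overlap. Where a gene had 0 reads, a level of up to 3 reads is allowed, which is 0.0571 to 0.0951 RPM in these libraries and covers counting error only. A gene was tested when it exceeded 1 RPM (log2 RPM of 0) in at least 4 of the 8 libraries, which left 12258 of 26127 genes. The ESC markers were abundant in every library, with summed levels of 1090 to 1320 RPM in numbers 1 and 2 and 1250 to 1390 RPM in numbers 3 and 4. Markers of feeder fibroblasts summed to 30.0 to 53.3 RPM and 29.4 to 42.3 RPM, those of mesendoderm to 5.15 to 5.78 RPM and 4.32 to 4.85 RPM, and those of neural cells to 27.6 to 31.0 RPM and 22.8 to 34.2 RPM. Trophoblast markers stayed between 0.493 and 1.33 RPM, and the trophoblast factor Elf5 had no reads in at least 1 library.

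Most of the variation among the WT libraries followed the numbers in 1 direction. The first principal component of the tested genes took 63.8% of the variance. It placed 1A at -35.8, the other libraries of numbers 1 and 2 between -14.3 and -13.2, number 3 at 6.68 (3A) and -0.81 (3B), and number 4 at 29.2 (4A) and 42.2 (4B). Number 3 thus lay between numbers 1 and 2 and number 4. The second component, with 15.1%, separated number 1 (13.4 and 17.2) from number 2 (-16.5 and -17.4), and it left numbers 3 and 4 near 0. Over genes, the log2 difference between A and B had a standard deviation (SD) of 0.193 in number 2, 0.202 in number 3 and 0.232 in number 4, and in these 3 numbers each library was closer to its partner than to any other library. The pair of number 1 was wider, at 0.306, and 1B was slightly closer to 3B (0.304). Pairs of different numbers ran from 0.279 (2A and 3B) to 0.713 (1A and 4B).

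**Figure D1:**
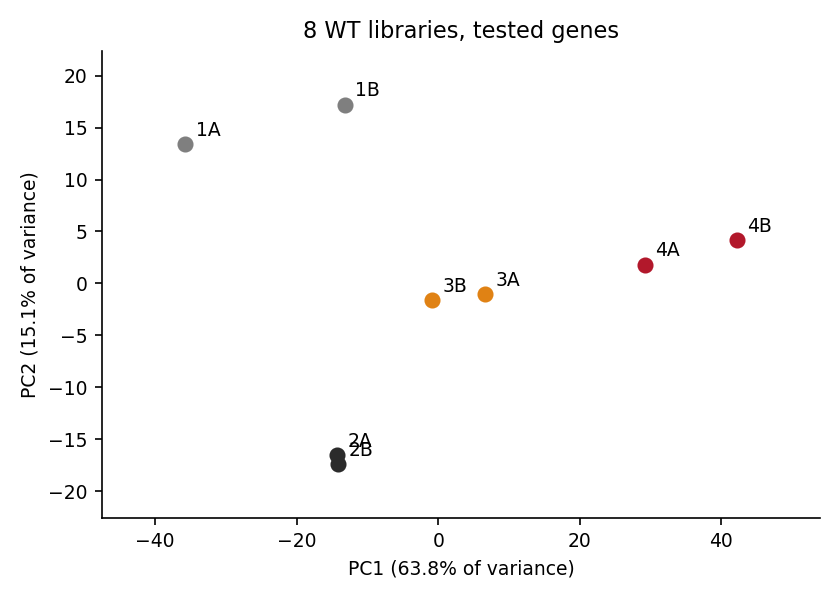
Principal components of the 8 WT libraries over the 12258 tested genes (log2 RPM, centred by gene), with the first component on the horizontal axis (63.8% of variance) and the second on the vertical axis (15.1%). Each point is a library and each colour a number. Number 3 sits between number 4 on the right and numbers 1 and 2 on the left.

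Across all tested genes, 1783 (14.5%) were higher and 1300 (10.6%) lower in numbers 3 and 4 than in numbers 1 and 2 (limma across all genes, Benjamini-Hochberg adjusted p-value under 0.05, 8 libraries, each as 1 replicate). In 2086 genes (17.0%) all 4 libraries of numbers 3 and 4 lay above all 4 of numbers 1 and 2, and in 1212 (9.89%) all 4 lay below. Of the 3083 called genes, 3083 had the means of both number 3 and number 4 on the called side. A shift in number 4 alone would widen the spread that the test uses and hinder a call, so this count is a description. In 2917 of the called genes the mean of number 3 lay between that of number 4 and that of numbers 1 and 2. The calls rest on counting A and B as separate replicates: with A and B averaged, so that 2 values stood against 2, 1 gene was called (0.00816%), while 2443 genes had an unadjusted p under 0.05. They also rest on single libraries. The count was 536 without 1A, 1649 without 2A, 1523 without 2B, 1039 without 4B and 4 without 4A. A minimum difference of 2-fold left 97 genes, 33 higher and 64 lower.

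Slc15a2, the 1 gene called with A and B averaged, encodes a transporter that takes up short peptides (chr16:36750264-36785048 on NCBIM37, minus strand, 22 exons). It measured 3.94, 3.93, 3.97 and 3.80 log2 RPM in 1A, 1B, 2A and 2B, 1.12 and 1.24 in 3A and 3B, and 0.70 and 0.79 in 4A and 4B. Numbers 1 and 2 were alike to within the A to B spread, and both other numbers were far below them. The log2 difference of numbers 3 and 4 was -2.95 (SE 0.14, limma adjusted p = 2.33e-06), 7.72-fold lower, and with A and B averaged its adjusted p was 0.00131. Over all other settings tried, each of which called it, the difference lay between -3.17 and -2.44 and the adjusted p between 2.5e-10 and 0.0155. Within the pair, number 4 was lower than number 3 by a log2 difference of -0.43 (adjusted p = 0.0393). Dnmt1 KO libraries had a mean of 1.79 and Dicer/Dnmt1 KO libraries 3.41.

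Imprinted genes held 3 of the 4 genes that were called in number 3 alone against numbers 1 and 2 when the spread was taken over all 6 libraries (Slc15a2, H19, Igf2 and Sfmbt2). H19, a maternally expressed noncoding RNA (chr7:149761434-149764048, minus strand), measured 4.20, 3.86, 3.11 and 3.33 log2 RPM in numbers 1 and 2, 5.70 and 5.55 in number 3, and 5.87 and 6.0 in number 4. Each library of numbers 3 and 4 was above each of numbers 1 and 2. The log2 difference was 2.15 (SE 0.21, limma adjusted p = 0.00278), 4.44-fold, with an adjusted p of 0.0506 when A and B were averaged and 0.0595 with the letter B libraries only. Numbers 3 and 4 differed from each other by 0.31 (adjusted p = 0.0819). In both knockout groups H19 was higher still, with means of 8.0 and 8.54.

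Igf2, the paternally expressed growth factor that shares a control region with H19 (chr7:149836673-149852721, minus strand), went the opposite way. It measured 4.67, 4.42, 4.84 and 4.79 log2 RPM in numbers 1 and 2, 3.66 and 3.68 in number 3, and 3.96 and 3.81 in number 4, again without overlap. The log2 difference was -0.90 (SE 0.11, limma adjusted p = 0.0111). Sfmbt2, a Polycomb group protein read from the paternal copy (chr2:10292137-10516880, plus strand), measured 5.25, 5.24, 5.19 and 5.07 in numbers 1 and 2, 4.29 and 4.48 in number 3, and 4.49 and 4.38 in number 4. It was lower by a log2 difference of -0.78 (SE 0.08, adjusted p = 0.00448), and numbers 3 and 4 stood within 0.05 of each other. Plagl1, a paternally expressed zinc finger factor, was lower by a log2 difference of -0.98 (SE 0.16, adjusted p = 0.0136), with 1.36 to 1.90 in numbers 3 and 4 beside 2.32 to 2.92 in numbers 1 and 2. With A and B averaged Igf2, Sfmbt2 and Plagl1 each had an adjusted p of 0.191.

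The imprinted list as a whole did not move in 1 direction. Of its 45 genes 42 were measured and 31 tested, and 4 were higher and 8 lower. Over all tested genes 14.5% were higher and 10.6% lower, so the count of higher genes was near that share. The median log2 difference was -0.04 beside 0.01 over all tested genes. The lower ones also included Peg10, Zdbf2, Gnas, Trappc9 and Peg3 (-0.71, -0.62, -0.46, -0.45 and -0.44), for each of which number 4 was lower than number 3 (adjusted p between 0.0103 and 0.0348). The higher ones besides H19 were Mkrn3, Commd1 and Impact (0.51, 0.44 and 0.26). The noncoding RNA Rian of the Dlk1-Dio3 cluster was 0.86 to 1.67 in the 8 WT libraries, with no call in any of the 5 comparisons of WT numbers, beside means of 6.37 and 6.26 in the 2 knockout groups. Leaving out 1A, the list had 1 higher and 3 lower calls.

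**Figure D2:**
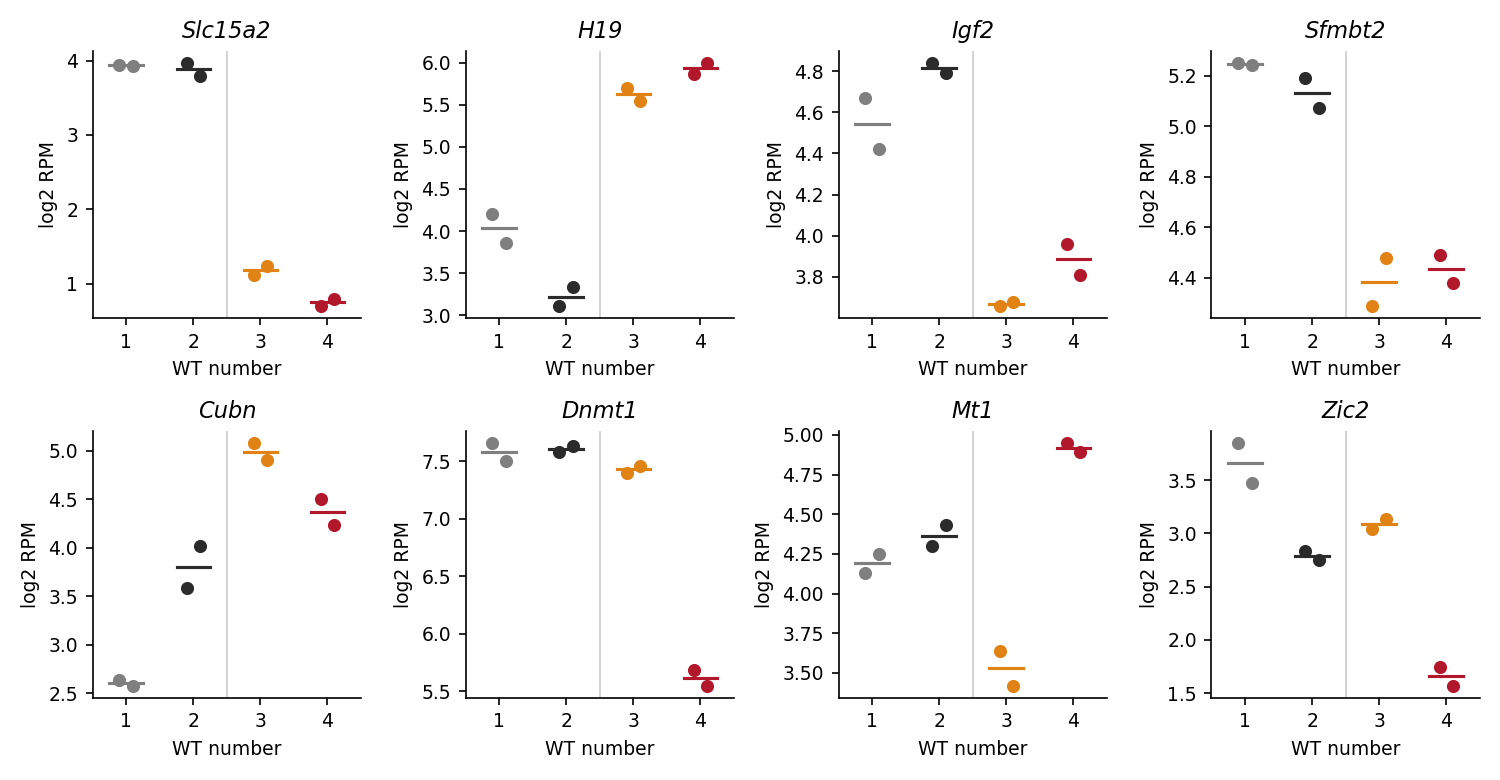
Levels of 8 genes (log2 RPM, vertical axis, a separate scale for each gene) in the WT libraries by number (horizontal axis). Points are libraries A and B, and bars are the mean of a number. Slc15a2, H19, Igf2 and Sfmbt2 change between numbers 2 and 3, Dnmt1 and Zic2 are low in number 4 only, and Mt1 is low in number 3 and high in number 4.

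Most tested genes of the primitive endoderm were higher in both numbers. Of the 20 listed genes 15 were tested, and 11 were higher and 1 lower, where 14.5% and 10.6% of all tested genes were. The median log2 difference was 0.61, with 0.59 for number 3 and 0.64 for number 4. Amn passed the level filter only through numbers 3 and 4, where it was high, and without it 10 of 14 were higher with medians of 0.58, 0.56 and 0.57. Number 4 against number 3 had 0 of the 15 higher and 5 lower (median -0.21), beside 4.89% and 18.5% of all tested genes. Tested genes outside the list, with lengths between the list's lower and upper quartiles (2596 and 6592 bases), had medians of -0.05, 0.02 and -0.13. For the other lists, genes of the same lengths were likewise taken between the quartiles of the list. Cubn, which with Amn forms the cubam receptor that takes up proteins from the fluid around the yolk sac, measured 2.64, 2.58, 3.59 and 4.02 log2 RPM in numbers 1 and 2, 5.08 and 4.90 in number 3, and 4.50 and 4.23 in number 4. It rose by 1.47 (SE 0.31, limma adjusted p = 0.0158), yet its levels in number 2 were already higher than in number 1 by 1.19, and number 4 lay below number 3 by a log2 difference of -0.63 (adjusted p = 0.0133).

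Among the receptors and factors that mark the lineage, Pdgfra, a receptor for PDGF, rose by 1.00 (adjusted p = 0.0141). The transcription factors Gata6, Gata4 and Foxq1 rose by 0.90, 0.75 and 1.01 (adjusted p = 0.0309, 0.0169 and 0.0149). The library levels of Gata4 were 1.31, 1.47, 1.11 and 1.81 in numbers 1 and 2 and 2.24, 2.30, 2.07 and 2.06 in numbers 3 and 4, which do not overlap. Amn, which had to differ because of the level filter, went from -0.98 to -0.09 log2 RPM in numbers 1 and 2 to 0.71 to 1.40 in numbers 3 and 4. Secreted and matrix proteins were uneven: Col4a1, Serpinh1 and Sparc rose by 0.61, 0.54 and 0.27, and Lamc1 fell by 0.53 (adjusted p = 0.0422), while Lama1, Lamb1 and Dab2 had differences of 0.15, 0.02 and -0.02 that did not pass.

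The defining factor Sox17 stayed below the level filter. It measured -2.66, -0.96, -1.51 and -1.16 log2 RPM in numbers 1 and 2 (5 to 19 reads), and 0.04, -0.16, 0.38 and 0.91 in numbers 3 and 4 (42 to 63 reads). All 4 libraries of numbers 3 and 4 were higher, and without the filter its log2 difference was 1.86 (adjusted p = 0.0349). Foxa2 and Hnf4a had 0 to 5 reads in numbers 1 and 2 and 5 to 18 in numbers 3 and 4, with differences of 1.62 and 2.10 in the unfiltered fit (adjusted p = 0.0354 and 0.0306). The 5 defining markers together summed to 5.99 to 8.86 RPM in numbers 1 and 2 and to 12.9 to 15.3 RPM in numbers 3 and 4. All 20 listed genes summed to 578.5 to 666.7 RPM in numbers 1 and 2. In this sum 3A and 3B were above (726.6 and 760.5 RPM), while 4A and 4B (650.3 and 592.0 RPM) overlapped with numbers 1 and 2. In RNA of a whole culture, more cells of a kind and more RNA per cell cannot be told apart. The count of higher genes in the list was 7 without 1A and 0 without 4A.

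The genes encoded by the mitochondrial genome, subunits of the respiratory chain and of ATP synthase, were lower in both numbers. Of 13 genes, all of them tested, 9 fell and 0 rose, where 10.6% of all tested genes fell and 14.5% rose. The median was -0.78, and numbers 3 and 4 had nearly the same medians, -0.79 and -0.75. Set against each other, number 4 was higher than number 3 in 3 of the 13 and lower in 0 (median 0.20), beside 4.89% and 18.5% of all tested genes. Within the reference, 4 of the 13 were lower in number 2 than in number 1 (median -0.37), beside 6.07% of all tested genes. The median of numbers 3 and 4 was -0.56 without number 1 and -1.01 without number 2. Tested genes outside the list, between the quartiles of its lengths, had a median of 0.33. mt-Nd1, a subunit of complex I, measured 8.77, 8.51, 8.18 and 8.33 log2 RPM in numbers 1 and 2, 7.62 and 7.38 in number 3, and 7.63 and 7.50 in number 4. Its log2 difference was -0.92 (limma adjusted p = 0.0117), without overlap of the libraries. mt-Nd4, mt-Atp8 and mt-Cytb fell by 0.99, 0.92 and 0.91. The exceptions were mt-Co3 (0.34), mt-Nd3 (0.14), mt-Nd6 (0.00) and mt-Co1 (-0.43), which did not pass the test, and of these mt-Co3 was called higher in number 4 (0.55, adjusted p = 0.00209).

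The share of gene reads in the mitochondrially encoded genes was 1.86%, 1.82%, 1.52% and 1.69% in 1A, 1B, 2A and 2B, 1.28% and 1.04% in 3A and 3B, and 1.45% in both 4A and 4B. It was 1.72% ± 0.151 (SD, n = 4) against 1.31% ± 0.192 (n = 4), a difference of -0.419 percentage points (two-sided exact permutation p = 0.0286, the smallest that 4 against 4 allows, 0.0429 when adjusted over 3 library measures). With A and B averaged the p was 0.333, the smallest that 2 against 2 allows. The count of lower genes was 8 without 1A and 0 without 4A.

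**Figure D3:**
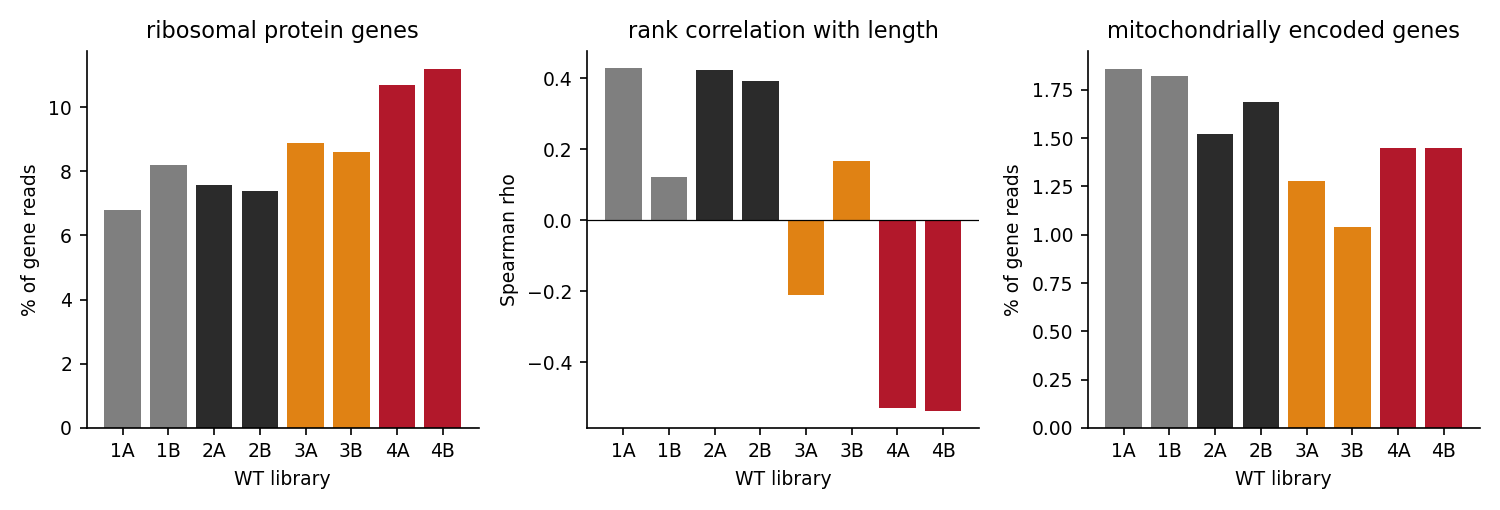
Share of gene reads in ribosomal protein genes (left, %), Spearman rank correlation of a library's deviations with transcript length (middle) and share of gene reads in mitochondrially encoded genes (right, %) in each WT library. Bars are single libraries, and colours are numbers. The first measure is highest in 4A and 4B (10.7% and 11.2%), the second lowest there (-0.528 and -0.536), and the third lowest in 3A and 3B (1.28% and 1.04%).

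Nuclear genes of short, abundant messenger RNAs moved the other way. Of 78 cytosolic ribosomal protein genes, 58 rose and 1 fell (Rpl28, -0.24), with a median of 0.48. Against numbers 1 and 2, number 3 had 38 higher and 2 lower with a median of 0.32, and number 4 had 74 higher and 2 lower with a median of 0.64. Over all tested genes 14.5% rose and 10.6% fell, with 8.23% and 2.42% in number 3 and 25.6% and 31.0% in number 4. Of 82 tested nuclear genes of oxidative phosphorylation, 54 rose and 1 fell (Atp5d, -0.28), with medians of 0.44 for both numbers, 0.26 for number 3 and 0.57 for number 4. Of 61 tested replication-dependent histone genes, whose RNAs have no poly(A) tail, 33 rose and 1 fell, with a median of 0.42. Other tested genes of the same lengths had medians of 0.28, 0.25 and 0.35 beside the 0.48, 0.44 and 0.42 of these 3 lists. In number 4 they had 0.38, 0.33 and 0.50, where the histone genes had 0.50 as well. Without 1A the higher counts of the 3 lists were 28, 20 and 13, and without 4A they were 0, 0 and 0.

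Rpl39, a small protein of the large subunit, measured 6.84, 7.45, 8.02 and 7.83 log2 RPM in numbers 1 and 2 and 8.62, 8.30, 8.81 and 8.97 in numbers 3 and 4, a log2 difference of 1.14 (SE 0.23, limma adjusted p = 0.0149). Every library of numbers 3 and 4 was above those of numbers 1 and 2, and 1A was the lowest of all. The related genes Rpl22l1 and Rpl39l rose by 1.25 and 1.23 (adjusted p = 0.0184 and 0.0297). Ribosomal protein genes took 6.79%, 8.21%, 7.58% and 7.40% of gene reads in numbers 1 and 2, 8.87% and 8.60% in number 3, and 10.7% and 11.2% in number 4. The means were 7.50% ± 0.585 (SD, n = 4) and 9.85% ± 1.31 (n = 4), a difference of 2.35 percentage points (two-sided exact permutation p = 0.0286, adjusted 0.0429, and 0.333 with A and B averaged). Ribosomal protein genes have many processed pseudogenes, so that reads of the 2 kinds may be shared.

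Start sites of ribosomal protein genes usually lie in a stretch of pyrimidines, the TOP element, which ties the translation of these RNAs to growth signals. The core letters CTTTC, read on the strand of the gene in a window of 30 bases from 10 before to 20 within the transcript, were found in 26.8% of the 56 tested ribosomal protein genes with a RefSeq promoter and in 3.74% of all 32851 promoters of the table (on the other strand 3.57% and 3.65%). The windows of a few members are shown to let the rising genes be read beside 1 that fell, with CTTTC in capitals (RefSeq, GRCm38.p6, from 5′ to 3′).
Rpl38 (chr11:114668570-114668599, plus strand): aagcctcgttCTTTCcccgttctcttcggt
Rpl35a (chr16:33056472-33056501, plus strand): gcttgccttcctCTTTCcgccatcttggcg
Rpl18 (chr7:45718061-45718090, plus strand): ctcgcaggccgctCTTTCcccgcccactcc
Rpl28 (chr7:4792955-4792984, plus strand): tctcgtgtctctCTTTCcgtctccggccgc
The log2 differences of these genes were 0.71, 0.63, 0.49 and -0.24. The 15 ribosomal protein genes with the letters had a median difference of 0.41 and the 41 without them 0.49. The element is usual in these genes, yet the exact letters matched only 26.8% of them. The split therefore does not sort genes with the element from genes without it, and a role of the element was not tested.

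The difference between the numbers followed transcript length across all genes. In the 107 tested genes of up to 500 bases the median log2 difference of numbers 3 and 4 was 0.42, in 618 genes of 500 to 1000 bases 0.35, and in 2275 genes of 1000 to 2000 bases 0.20. It reached -0.01 at 3000 to 4000 bases, -0.26 at 6000 to 8000 bases and -0.38 in the 586 genes over 8000 bases, of which 7 were higher and 221 lower. Number 4 spanned the widest range, from 0.55 to -0.62, and number 3 ran from 0.29 to -0.16, while number 2 stayed within 0.07 of number 1 in every class. Leaving the 4 lists of ribosomal protein, oxidative phosphorylation, histone and mitochondrial genes out kept the ends at 0.36 and -0.38.

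**Figure D4:**
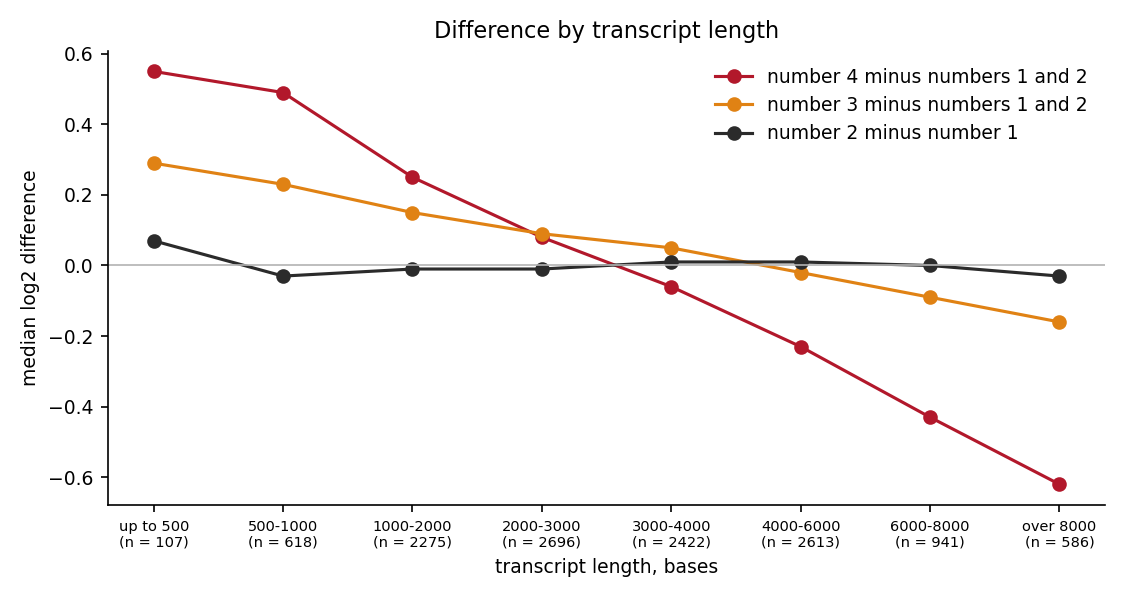
Median log2 difference of the tested genes (vertical axis) by class of transcript length in bases (horizontal axis, genes per class in brackets) for number 4 and number 3 against numbers 1 and 2 and for number 2 against number 1. Number 4 falls from 0.55 in the shortest class to -0.62 in the longest, number 3 from 0.29 to -0.16, and number 2 stays within 0.07 of 0.

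Per library, the Spearman rank correlation across genes between transcript length and a gene's deviation from its mean over the 8 libraries was 0.429, 0.123, 0.423 and 0.393 in numbers 1 and 2, -0.209 and 0.167 in number 3, and -0.528 and -0.536 in number 4. Library 3B was on the side of numbers 1 and 2, and 1B was nearer to it than to 1A. The means were 0.342 ± 0.147 (SD, n = 4) and -0.276 ± 0.333 (n = 4), a difference of -0.619 that did not pass (two-sided exact permutation p = 0.0571). With the trends of length and GC content removed from each library, the medians of the lists parted: ribosomal protein genes went from 0.48 to 0.19, oxidative phosphorylation from 0.44 to 0.15 and histones from 0.42 to 0.19, while primitive endoderm went from 0.61 to 0.80 and the mitochondrially encoded genes from -0.78 to -1.23. The part of the length trend in each of these results was not tested further.

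Most of the genes that fell furthest had long transcripts. Among the lowest, next to Slc15a2 and at a mean of at least 1 log2 RPM, were Tcf7l2, a transcription factor of the Wnt pathway (-1.34), Sipa1l3 (-1.27), Kdm6b, which removes methyl groups from histone H3 lysine 27 (-1.23), Clip3 (-1.18), Nav2 (-1.15), Asxl3 (-1.14), Rnf165 (-1.14) and the histone H3 lysine 4 methyltransferase Mll1 (-1.13). Their transcripts ran from 3381 bases (Clip3) to 16470 bases (Mll1), beside a median of 3156 over all tested genes. In all 8 the libraries of the groups did not overlap, and the adjusted p lay between 0.0136 (Tcf7l2) and 0.0324 (Kdm6b). Mll1 measured 6.25, 5.41, 5.80 and 5.66 log2 RPM in numbers 1 and 2, 5.04 and 5.35 in number 3, and 4.41 and 3.82 in number 4. It was highest in 1A and lowest in 4B.

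Among genes with a mean of at least 1 log2 RPM and no overlap of the groups, those that rose most, besides H19 and the genes above, were Srgn, the core of a secretory granule proteoglycan (2.21, SE 0.29, limma adjusted p = 0.0117), the lysosomal protease Ctsh (1.25, adjusted p = 0.0135), Hist1h2ba, a histone H2B of germ cells (1.18, adjusted p = 0.018), Fez1, an adaptor of axon growth (1.12, adjusted p = 0.0111), and Hint3 (1.06, adjusted p = 0.0187). Srgn went from 0.15, 0.00, 1.02 and 1.46 log2 RPM in numbers 1 and 2 to 2.97 and 2.57 in number 3 and 2.90 and 3.04 in number 4. Fez1 was 1.62 to 1.86 in numbers 1 and 2, 2.61 and 2.70 in number 3, and 3.07 and 3.00 in number 4, so that for this gene numbers 1 and 2 were alike. Their transcripts ran from 389 bases (Hist1h2ba) to 2743 bases (Ctsh), apart from the 11373 bases of Cubn.

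The machinery of small RNAs, of which Dicer1 is deleted in the Dicer/Dnmt1 KO, had long transcripts. Of 19 tested genes 2 rose, 8 fell and the others did not pass, where 14.5% of all tested genes rose and 10.6% fell. The medians were -0.40 for both numbers, -0.15 for number 3 and -0.54 for number 4. Other genes of the same lengths had medians of -0.17, -0.04 and -0.30, and with the trends of length and GC removed the list's median was -0.08. Eif2c2, which encodes the slicing Argonaute Ago2, measured 7.15, 6.49, 6.76 and 6.72 log2 RPM in numbers 1 and 2, 6.13 and 6.53 in number 3, and 5.55 and 5.02 in number 4. The libraries overlap through 3B and 1B. The log2 difference was -0.97 (limma adjusted p = 0.0291). Drosha, which cuts primary microRNAs, fell by 0.60, and the Argonaute partners Tnrc6a, Tnrc6b and Tnrc6c by 0.56, 0.69 and 0.56. Dicer1 itself fell by 0.52 (adjusted p = 0.0497), with 5.68, 5.40, 5.47 and 5.57 in numbers 1 and 2, 5.15 and 5.53 in number 3, and 4.78 and 4.56 in number 4. The short partners of Dicer, Tarbp2 and Prkra, rose by 0.38 and 0.43. Without 1A the list had 0 higher and 0 lower calls.

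Of 15 core pluripotency genes 3 rose and 3 fell, with a median of -0.03, beside 14.5% and 10.6% of all tested genes. Pou5f1, which encodes Oct4, rose by 0.49 (adjusted p = 0.0136), with 8.08 to 8.28 log2 RPM in numbers 1 and 2, 8.61 in both libraries of number 3, and 8.78 and 8.79 in number 4. Tdgf1, a co-receptor of Nodal, and Dppa4 rose by 0.61 and 0.47, and Sall4, Utf1 and L1td1 fell by 0.74, 0.55 and 0.31. Sox2 and Nanog, with differences of -0.01 and 0.15, did not pass. Of 19 naive genes 2 rose and 2 fell, near those shares. Within the reference 15 of the 19 were higher in number 2 than in number 1 (median 0.50), beside 4.41% of all tested genes. Among DNA methylation enzymes 1 of 18 rose (Dnmt3l, a cofactor of the de novo enzymes, 0.47) and 3 fell (Tet1 by 0.60 among them), with a median of -0.07. Id1 and Id3, targets of BMP, rose by 0.86 and 0.83 (adjusted p = 0.0136 and 0.014), and numbers 3 and 4 did not overlap with numbers 1 and 2 in either. Of 10 tested nuclear noncoding RNAs, the hosts of small nucleolar RNAs Snhg1, Snhg3, Snhg5, Snhg12 and Gas5 rose by 0.61, 0.72, 0.47, 0.54 and 0.42, and Neat1, the scaffold of paraspeckles, fell by 0.72.

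**Figure D5:**
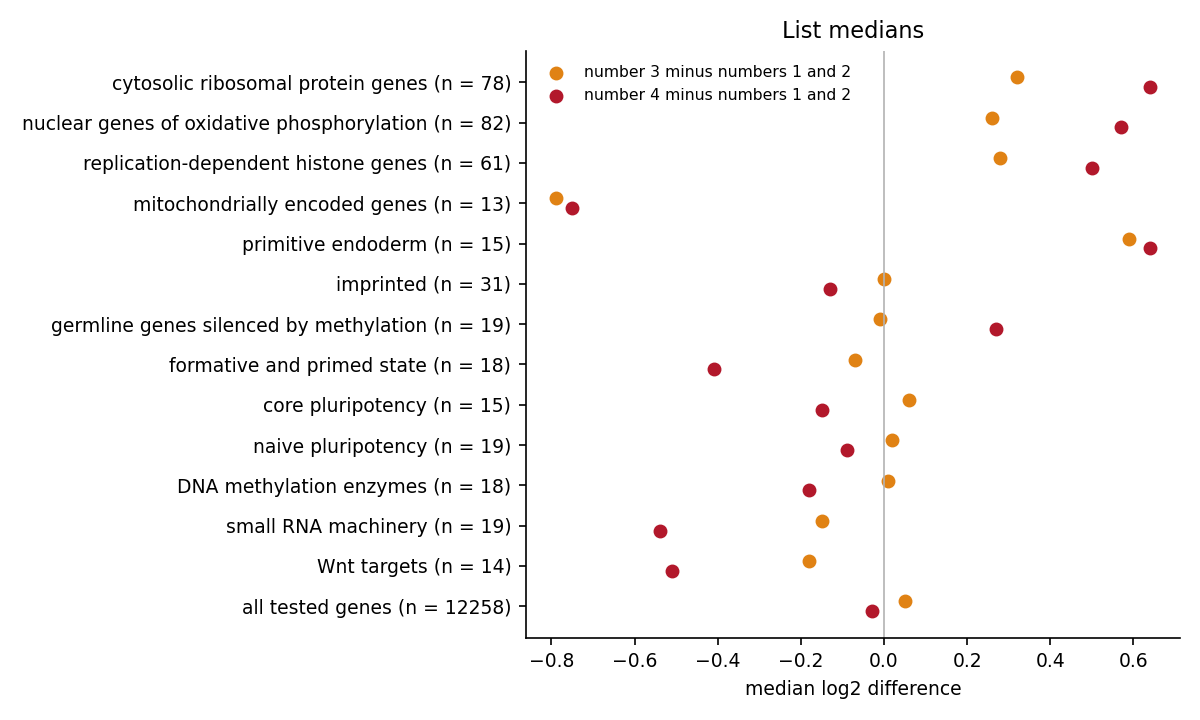
Median log2 difference (horizontal axis) of 13 gene lists and of all tested genes (vertical axis, number of tested genes in brackets) for number 3 and number 4 against numbers 1 and 2. Both numbers have close medians for mitochondrially encoded genes (-0.79 and -0.75) and primitive endoderm (0.59 and 0.64), while number 4 is the more distant for ribosomal protein genes (0.64 beside 0.32) and small RNA machinery (-0.54 beside -0.15).

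Number 3 and number 4 were then each compared with numbers 1 and 2 in a fit with a mean for each number, whose error is the spread of A and B alone. In number 3, 1009 genes (8.23%) were higher and 297 (2.42%) lower, and in number 4, 3142 (25.6%) were higher and 3802 (31.0%) lower. Number 4 against number 3 gave 599 higher (4.89%) and 2273 lower (18.5%). The 2 comparisons with numbers 1 and 2 share those 4 libraries. The split of number 4 against number 3 depended on scaling, with 1067 higher and 1295 lower after quantile normalization and 1467 higher and 1329 lower after median centring, and that of number 3 went to 556 and 405, and 630 and 399. For number 4 against numbers 1 and 2 the balance turned, to 3658 higher and 3267 lower and to 3816 higher and 3181 lower. As a yardstick, number 2 against number 1, both within the reference, gave 540 higher (4.41%) and 744 lower (6.07%). Single libraries again decided counts. For number 4 against number 3 it was 5 without 3B, 6 without 4B and 1299 without 3A. For number 3 it was 18 without 3A, 18 without 3B, 174 without 2A, 48 without 2B and 3983 without 1B. For number 4 it was 4418 without 4B, and for number 2 it was 216 without 2A, 181 without 2B and 2248 without 1B.

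Number 4 was the number with low Dnmt1, the reason it is shown apart, so the level is a description. Dnmt1 (chr9:20711650-20757317, minus strand, 39 exons, a transcript of 5264 bases) measured 7.66, 7.50, 7.58 and 7.63 log2 RPM in numbers 1 and 2, 7.40 and 7.46 in number 3, and 5.69 and 5.55 in number 4. Number 4 was thus 3.51-fold below number 3, at a mean of 49.2 RPM beside 173 RPM, and above the means of 21.2 and 23.8 RPM in Dnmt1 KO and Dicer/Dnmt1 KO. Because reads are summed over the whole gene, the values do not show which exons were transcribed.

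Besides Dnmt1, number 4 lay outside the range of the other 6 libraries in 557 genes called higher and 2096 called lower in both of its comparisons, against 17 higher and 10 lower for number 3. The excess of lower genes in number 4 depended on scaling (counted after seeing the data), with 979 higher and 1228 lower after quantile normalization and 1366 higher and 1259 lower after median centring. For number 3 the counts became 4 higher and 16 lower, and 3 higher and 18 lower. Of 18 tested genes of the formative and primed state, 11 fell and 2 rose in number 4 against numbers 1 and 2 (median -0.41). Over all tested genes 31.0% fell and 25.6% rose there. Against number 3, 10 fell and 1 rose, beside 18.5% and 4.89% of all tested genes. In number 3 itself 0 fell and 2 rose (median -0.07), beside 2.42% and 8.23%. Other genes of the same lengths had a median of -0.03 in number 4. Zic2, a zinc finger factor of the early epiblast, measured 3.85, 3.47, 2.83 and 2.75 log2 RPM in numbers 1 and 2, 3.04 and 3.13 in number 3, and 1.75 and 1.57 in number 4. The log2 differences of number 4 were -1.56 against numbers 1 and 2 (limma adjusted p = 3.55e-05) and -1.43 against number 3 (adjusted p = 0.00148). The growth factors Fgf8 and Fgf5 fell by 2.40 and 1.45, Sall2 by 1.14, and Otx2, which drives the exit from the naive state, by 0.76 (against number 3 by 2.24, 1.26, 0.95 and 0.80). The same list also moved within the reference: 14 of its 18 genes were lower in number 2 than in number 1, with a median of -0.72, beside 6.07% of all tested genes.

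Of the 34 measured germline genes that methylation is known to silence 19 were tested. In number 4 against numbers 1 and 2, 8 rose and 0 fell, where 25.6% of all tested genes rose. The median was 0.27, beside 0.04 in other genes of the same lengths, and it was 0.08 with the trends of length and GC removed. Against number 3, 6 rose and 0 fell, beside 4.89% and 18.5% of all tested genes, a split that depended on scaling. In number 3 against numbers 1 and 2, 0 rose and 1 fell (Rhox6), beside 8.23% and 2.42% of all tested genes. Dazl, an RNA-binding protein of germ cells, measured 1.09, 1.54, 2.18 and 2.11 log2 RPM in numbers 1 and 2, 2.00 and 1.68 in number 3, and 2.61 and 2.83 in number 4, a log2 difference of 0.99 (limma adjusted p = 0.000388). Sycp1, of the synaptonemal complex, rose by 1.25, Tex19.1 by 0.77, Hormad1 by 0.75, and Mael, of the piRNA pathway, by 0.53, and these 4 and Dazl were also called against number 3. This list too was higher in number 2 than in number 1, in 7 of its 19 genes with a median of 0.38, beside 4.41% of all tested genes. Pnma5 was under the level filter, with 11 to 25 reads in the other 6 libraries and 71 and 53 reads in 4A and 4B. Xlr3a had 10 and 7 reads in 4A and 4B and 0 to 7 elsewhere.

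With the same minimum of 1 log2 RPM, and by the smaller of the differences from number 3 and from numbers 1 and 2, the genes furthest above all other libraries in number 4 were Mt2, Rpl39l, Dazl, Myo1f, Car2 and Hopx. Car2, a carbonic anhydrase, measured 3.47 to 4.34 log2 RPM in numbers 1 to 3 and 4.92 and 5.02 in number 4. Hopx, a homeodomain protein, measured 0.64 to 1.36 in numbers 1 to 3 and 1.76 and 2.19 in number 4. Rpl39l had 1.88 and 1.71 in number 3 and 2.90 and 3.01 in number 4, beside means of 5.52 and 4.64 in the knockouts. Those furthest below, besides Dnmt1 and Zic2, were Gpr21, the metalloprotease Mmp25, Kdm6b and Tet3, an oxidase of 5-methylcytosine. Tet3 was 2.54 to 3.33 in numbers 1 to 3 and 1.52 and 1.20 in number 4, and its transcript of 10904 bases is in the longest class.

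Number 3 stood apart in few genes, and by the same rule those furthest below the other libraries were Mt1, Cryab, Mt2 and Krt17. Mt1 and Mt2 encode metallothioneins, small proteins that bind zinc and copper, and were the only 2 of the 12258 genes called in opposite directions in numbers 3 and 4. Mt1 (chr8:96702989-96704225, plus strand) measured 4.13, 4.25, 4.30 and 4.43 log2 RPM in numbers 1 and 2, 3.64 and 3.42 in number 3, and 4.95 and 4.89 in number 4. Its differences from numbers 1 and 2 were -0.75 (limma adjusted p = 0.00216) in number 3 and 0.65 (adjusted p = 0.000134) in number 4. Mt2, its neighbour (chr8:96696518-96697467, plus strand), measured 3.80, 3.86, 4.17 and 4.24 in numbers 1 and 2, 3.46 and 3.30 in number 3, and 5.13 and 4.99 in number 4, differing by -0.64 and 1.04. Between numbers 4 and 3 the log2 differences were 1.39 for Mt1 and 1.68 for Mt2, given without a test because the opposite calls fix their direction. Both knockout groups were higher than any WT library, with means of 5.61 and 5.93 for Mt1 and 5.71 and 5.95 for Mt2.

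Cryab, a small heat shock protein, measured 0.47 and 0.57 log2 RPM in number 3, beside 1.10 to 1.96 in the other 6 libraries (-1.14 against numbers 1 and 2, limma adjusted p = 0.0104). Krt17, a keratin, was lower in number 3 by a log2 difference of -0.48 (adjusted p = 0.0322). The genes furthest above were A2m, a protease inhibitor, Cubn, and the basement membrane genes Lama1 and Col4a2. A2m was 2.50 and 2.48 in number 3, 1.79 and 1.67 in number 4, and 0.61, 1.51, 2.01 and 2.25 in numbers 1 and 2. Cubn, Lama1 and Col4a2 also stood in the primitive endoderm list, and number 4 was below number 3 in each (-0.63, -0.64 and -0.33). Removing the trends of length and GC content took the difference of Col4a2 between numbers 4 and 3 to 0.07.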

How the data were processed

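RNA of ESCs, with ribosomal RNA removed, was read from both ends over 100 bases per the methods of the study. The authors trimmed reads with Trim Galore 0.3.5, aligned them with TopHat2 2.0.11 (versions per the labels) to NCBIM37, and dropped those with a mapping quality under 20. The labels also list GRCm38, and the gene coordinates are those of NCBIM37. The deposited values are log2 RPM per gene, made by the authors with SeqMonk, in 1 column per library. Another 35 value columns were not used. On the linear scale 100% of the values up to 1000 reads were whole reads (within 0.1 read), and a gene without reads is written as 0.9 read. Lengths and GC content are those of a gene's longest transcript in the annotation of the same build, and 26127 of 26127 genes were matched.

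The log2 values were fitted with limma 3.58.1 in R 4.3.3, with an intensity trend in the variance. Numbers 3 and 4 against numbers 1 and 2 was a 2-group fit of the 8 libraries. Comparisons of single numbers used a mean for each of the 4 numbers. All p-values were adjusted over the 12258 tested genes. Library measures were set against each other with exact permutation tests, two-sided. limma was used because the unit is log2, and the methods name DESeq2 and SeqMonk's intensity difference for the authors' own calls.

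Genes were named by rule: Dnmt1 and Dicer1, the 10 highest and 10 lowest called genes without overlap of libraries and with a mean of at least 1 log2 RPM (predicted genes, pseudogenes and small RNAs aside), 6 and 6 for number 4 and 4 and 4 for number 3 outside the range of the other 6 libraries, and up to 4 called members of each list. A gene among the 10 lowest is not reported here. Other members of lists, exceptions among them, were named after their values were seen. The members and lists were chosen with earlier results of these data known. The fits were tested on simulated data with known changes. Other scalings, filters, a pseudocount of 1 RPM, replicate units, length and GC trends and left-out libraries were tried.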

Additional observations from a re-analysis of the deposited data

Results flagged for a closer look

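In 280 sets of 4 libraries (numbers 1 and 2, or numbers 3 and 4, for each named gene and library measure), 13 had 1 library far from the other 3, where chance gives about 1 in 20. In 8 of the 13 it was 1A, in 4 it was 1B and in 1 it was 3A. Library 1A was the high one for Asxl3 (2.70 log2 RPM), Klf5 (5.53), Sbno2 (4.54), Srebf2 (6.55) and Tsix (2.61), and the low one for Pgk1 (8.32), Cbx3 (5.26) and Snhg1 (6.12). Library 1B was the odd one for Pdgfra (0.84), Hspe1 (7.48), Rb1 (4.21) and the rank correlation with transcript length (0.123, beside 0.393 to 0.429 in 1A, 2A and 2B), and 3A for S100a4 (3.78).

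Mt2 and Mt1 changed in opposite directions in numbers 3 and 4 against the same libraries of numbers 1 and 2. Number 4 minus number 3 was 1.68 for Mt2 and 1.39 for Mt1 on the log2 scale. Both genes were picked for their opposite calls, so these differences restate the selection and are a description.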

How the results depend on the processing

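For numbers 3 and 4 against 1 and 2, the 3083 calls became 1 with A and B averaged, 2 with number as a random block (a correlation of 0.57 within a number), 1380 and 1 with the letter A or B libraries only, 6100 with the error of the A to B spread alone, 1644 without a filter on low values, 97 with a minimum of 2-fold, and 2047 with the trends of length and GC removed (added after seeing the data). They were 648 without number 1, 1272 without number 2, 5172 without number 3 and 4 without number 4, and 4 to 4267 when 1 library was left out. The range over left-out libraries was 18 to 3983 for number 3, 4418 to 7690 for number 4, 5 to 2066 for number 4 against number 3, 181 to 2248 for number 2 against number 1, 1.89 to 2.77 points for the ribosomal protein share, and -0.485 to -0.331 points for the mitochondrial share. Both shares kept their differences of 2.35 and -0.419 points with A and B averaged, and had no p under 0.05 in any of these, because fewer libraries allow no smaller p. The cause of the other changes was not tested.

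A minimum of 2-fold left 25 genes for number 3, 598 for number 4, 101 for number 4 against number 3 and 110 for number 2 against number 1. Without a filter 285, 1267 and 756 were called for number 3, number 4 against number 3 and number 2 against number 1. With length and GC trends removed number 4 against number 3 gave 1798 and number 2 against number 1 gave 2110. With the letter as a replicate block the counts were 2142, 1140, 6721, 2617 and 1097 in the order of numbers 3 and 4, number 3, number 4, number 4 against 3 and number 2 against 1. The letters are not known to pair libraries. Voom on the reads recovered from the values, also added, called 2937. The 2 planned tests on raw counts (quasi-likelihood and negative binomial) were not run, since the deposited unit is log2.

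Of 3889 values of named genes under alternatives, 1183 lost and 7 gained an adjusted p under 0.05, and 2 reversed: Col4a2 between numbers 4 and 3 was 0.07 with length and GC trends removed, and Zbtb38 in numbers 3 and 4 was 0.02 with the length trend removed. The minimum of 2-fold leaves the p-values as they are, so its 161 values could not change. They are counted among the values that stayed the same. Leaving out 4A took 121 of the named genes' results out of the calls.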

Other observations

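Chromosome 12 had the highest median log2 difference of the 19 autosomes, 0.11 in a range of -0.04 to 0.11, and it was chosen after these values were seen. Of its 443 tested genes 24.6% were higher and 4.97% lower in numbers 3 and 4, beside 14.2% and 10.8% on the other chromosomes. The median transcript length was 3157 bases there and 3156 bases elsewhere. The median difference of chromosome 12 was 0.13 in number 3 and 0.08 in number 4. Chromosome 13 was close to it, with a median of 0.10, and with 0.09 in number 3 and 0.13 in number 4. Of its 481 tested genes 94 were higher and 35 lower. The median of the X chromosome was 0.02.

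Dkk1, a secreted inhibitor of Wnt signalling, was at -2.39, -2.03, -1.73 and -0.24 log2 RPM in numbers 1 and 2, 0.04 and 0.60 in number 3, and 0.23 and 0.29 in number 4. Its log2 difference was 1.89, given without a test because it passed the level filter through numbers 3 and 4 only. The 13 other tested genes of the list of Wnt targets had 0 higher and 2 lower, with a median of -0.45. Fn1, fibronectin, fell from 8.60 to 9.23 log2 RPM in numbers 1 and 2 to 8.20 and 8.60 in number 3 and 7.61 and 7.09 in number 4 (-1.01, adjusted p = 0.0254). Among 32 tested genes of glycolysis and hypoxia 10 were higher and 1 lower with a median of 0.16. Among 18 endoplasmic reticulum chaperones 6 were higher and 0 lower with a median of 0.15. Over all tested genes 14.5% were higher and 10.6% lower, and other genes of the same lengths had medians of 0.04 and 0.05.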
